A study of Drosophila melanogaster with 27 samples.

Results

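Before a cell copies its DNA, replication origins are licensed. The origin recognition complex (ORC), of which Orc1 and Orc2 are subunits, binds DNA and, together with Cdc6 and the loading factor Cdt1 (dup in Drosophila), places the ring-shaped MCM helicase on chromatin. The MCM ring has the subunits Mcm2, Mcm3, Mcm4 (dpa in Drosophila), Mcm5, Mcm6 and Mcm7, and geminin binds Cdt1 and blocks further loading once S phase has begun. Monomethylation of lysine 20 of histone H4 (H4K20me1) is laid down by Set8 and has been tied to the same process. In human cells Set8 and Cdt1 are both degraded in S phase through the replication clamp PCNA, and the BAH domain of human ORC1 binds the dimethylated form of H4K20.

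The 10 genes Orc1, Orc2, dup, geminin, Mcm2, Mcm3, dpa, Mcm5, Mcm6 and Mcm7 were found by symbol among 13922 protein-coding genes of chromosome arms 2L, 2R, 3L, 3R, X and 4 in the RefSeq gene table of the dm6 build. Their locus tags there are, in the same order, CG10667, CG3041, CG8171, CG3183, CG7538, CG4206, CG1616, CG4082, CG4039 and CG4978. H4K20me1 had been profiled by CUT&RUN, in which an antibody tethers a nuclease to chromatin and the released DNA fragments are sequenced. Each library held the chromatin of 20 wing imaginal discs, the sheets of larval epithelium from which the wing and notum of the fly arise, taken from Drosophila melanogaster females at the wandering stage of instar 3. The animals were kept at 25 °C. Oregon-R discs, a wild-type strain, were profiled with an H4K20me1 antibody (n = 3) and with no primary antibody (n = 3), and the authors' peak list sets the first against the second. It holds 6914 peaks on a 50 bp grid, with a position and a width for each but no height and no value per library, so the spread between libraries and the read depth are unknown. Libraries of discs with other Set8 and histone genotypes, 21 in 8 groups that include those labelled HWT and Set8wt, were not analysed here. A disc holds cells in all phases of the cell cycle, and a mark in fewer cells cannot be told apart from a weaker mark in each cell. The peak list gives no expression level with which to check the tissue. Among genes that mark wing disc regions, sd, nub, ap, rn, tsh and Fas3 had a peak and vg, pdm2 and Doc1 had none (6 of 9). Of 7 marker genes of other tissues (nerve, muscle, blood and fat body) only elav did. A peak touched 38.3% of all protein-coding genes, and these short lists were not matched for length. The covered share of the body was 0.405% in rn, 27.9% to 96.8% in the other wing disc genes with a peak, and 26.1% in elav. These counts are a description and do not check the tissue.

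A peak touched the body of 9 of the 10 licensing genes, and Mcm5 was the exception. Of all protein-coding genes 38.3% had a peak by this rule of at least 1 bp of overlap. Of the 6767 genes within the length range of the 10 (1132 to 4370 bp), 39.6% did. The 12 peaks involved covered 6496 of the 28388 bp in the 10 bodies together, or 22.9%, close to the 21.4% of the body sequence covered in all genes of that length range. In the genes of that range with a peak, 50.2% of the body sequence was covered, and the median share was 47.5%. Of the 10 genes only Orc2 was above that median. At least 50% of the body was covered in Orc2 alone, against 18.3% of all protein-coding genes and 19.2% of those in the length range. None of the 9 genes with a peak was covered whole or had peaks crossing both of its ends. Among the 2682 genes of the same length range with a peak, 13.5% were covered whole and 16.2% had both ends crossed. Among 9 genes such shares stand for few genes, so a count of 0 is not far from them. A single end was crossed in 66.7% of the 9 and 54.0% of the 2682, and neither end in 33.3% and 29.8%. These differences were not tested, since the list carries no replicate values.

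**Figure D1:**
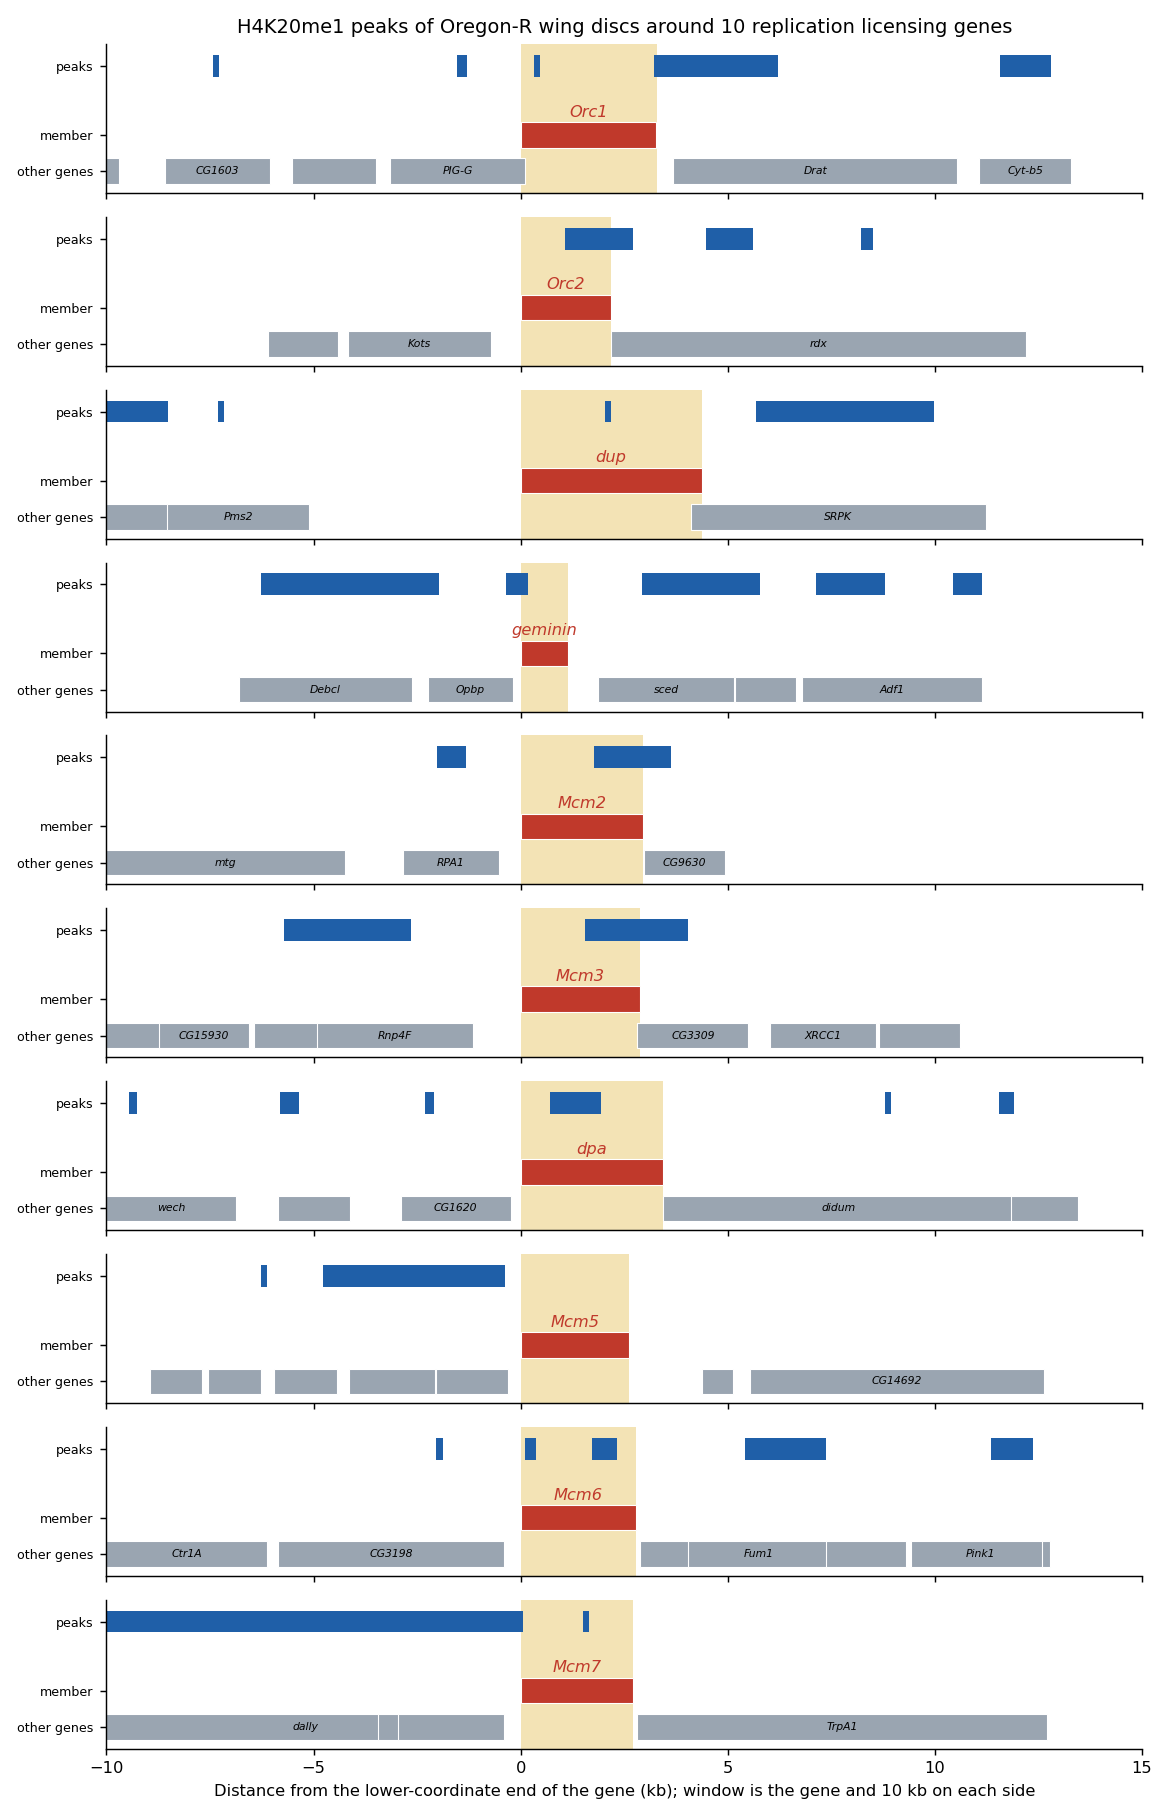
Each panel shows a licensing gene (red, shaded) with 10 kb on either side, in kb from its lower-coordinate end. Blue bars are the authors' H4K20me1 peaks and grey bars are other protein-coding genes, some of them named. Peaks run over the higher-coordinate end of Orc2, Mcm2 and Mcm3, dpa and Mcm6 hold peaks of their own, and Mcm5 has none.

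The gene table used here gives no strand, so the ends of a gene are called lower and higher by their coordinates. By covered share of the body, the order was Orc2, Mcm3, Mcm2, dpa, Mcm6, geminin, Mcm7, Orc1, dup and Mcm5. With a single list, no spread is known for the steps in this order.

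The ORC subunit genes were covered to 51.3% (Orc2) and 6.59% (Orc1). Orc2 (3R 13964885 to 13967075, 2191 bp) was crossed at its higher end by a 1650 bp peak (3R 13965951 to 13967600) that covered 1125 bp, or 51.3%, of the gene. Of that peak, 68.2% lay in Orc2 and the rest in rdx, which encodes an adaptor for degradation of the Hedgehog effector Ci and overlaps Orc2 by 15 bp. Orc2 was covered more than 1118 of the 1392 genes in its length decile (2163 to 2833 bp), of which 41.7% had a peak. In this rank and those given below, every gene without a peak counts as less covered. Its share changed only to 51.0% when the bases shared with rdx were left out.

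Orc1 (2R 7522437 to 7525716, 3280 bp), whose product is the largest ORC subunit, was touched by a pair of peaks but covered over only 6.59% of its length. The first, at 2R 7522751 to 7522900, had the narrowest width in the list, 150 bp, which 15.3% of all peaks share. The second was 3000 bp wide (2R 7525651 to 7528650), but just 66 bp of it, 2.20%, lay in Orc1. Of the genes in its length decile (2833 to 4024 bp), 49.5% had a peak, and Orc1 was covered more than 780 of 1392. The wider peak ran on over the 401 bp gap to the neighbouring gene Drat, which held 84.4% of it. At its lower end Orc1 overlaps PIG-G by 105 bp, and a 250 bp peak in PIG-G lay 1286 bp outside Orc1.

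The loading factor gene dup was covered to 3.43% and the gene of its inhibitor, geminin, to 16.6%. In dup (2R 15376619 to 15380988, 4370 bp), the longest of the 10 genes, the only peak was again 150 bp wide (2R 15378651 to 15378800) and lay near the middle of the body. In its length decile (4025 to 6472 bp) 56.5% of genes had a peak, and dup was covered more than 640 of 1392. A 4300 bp peak began 1312 bp past the higher end of dup and lay wholly in SRPK, an SR protein kinase gene that overlaps dup by 265 bp.

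In geminin (2R 6655463 to 6656594), the shortest gene at 1132 bp, a 550 bp peak (2R 6655101 to 6655650) entered from the lower side and covered 188 bp of the gene. In the length decile of geminin (1023 to 1342 bp) 28.7% of genes had a peak, and geminin was covered more than 1097 of 1392. Most genes of this decile had no peak and so rank below it. Of this peak 34.2% lay in geminin, 30.4% in Opbp and 195 bp in the gap between these genes. Larger peaks flanked the gene on both sides, 4300 bp wide and 1962 bp away, mostly over Debcl, a Bcl-2 family gene, and 2850 bp wide and 1806 bp away over sced and Dpit47. The 10 kb flanks of geminin were thus covered to 49.3%, more than its body.

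**Figure D2:**
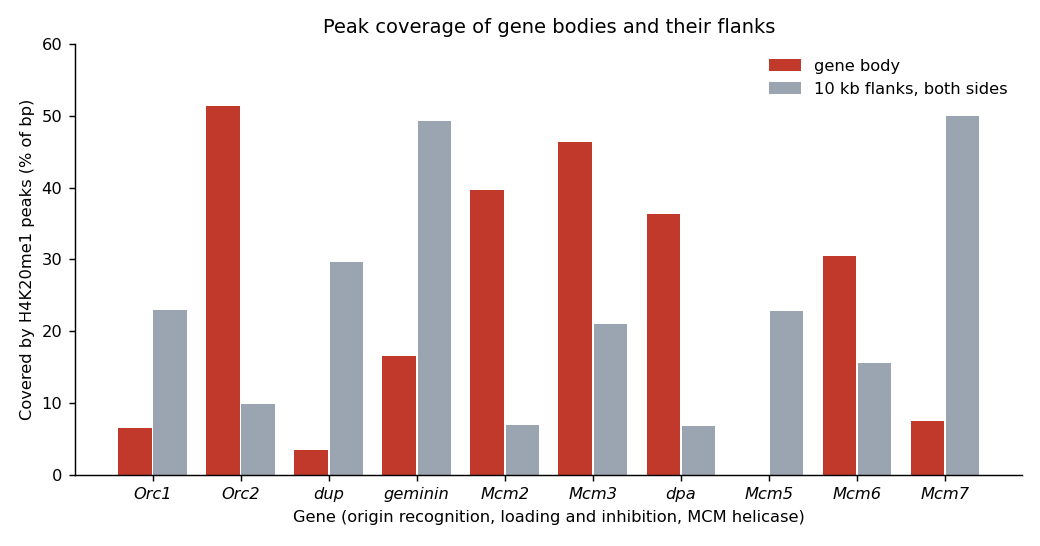
Bars give the percent of base pairs under H4K20me1 peaks in the gene body (red) and in the 10 kb flanks on both sides (grey) for the 10 genes. The body exceeds the flanks in Orc2, Mcm2, Mcm3, dpa and Mcm6, and the flanks exceed the body in Orc1, dup, geminin, Mcm5 and Mcm7, where Mcm5 has no red bar because its body is covered to 0%.

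Among the helicase genes, Mcm2, Mcm3, dpa and Mcm6 had between 30.5% and 46.4% of their body under peaks, Mcm7 had 7.55% and Mcm5 none. Mcm3 (X 5323855 to 5326738, 2884 bp) had the highest share, 46.4%, from a 2500 bp peak at X 5325401 to 5327900. This peak lay to 53.5% in Mcm3 and passed 1162 bp beyond its higher end into CG3309, which overlaps Mcm3 by 64 bp and was covered to 45.9%. In Mcm2 (3R 8264970 to 8267924, 2955 bp) an 1850 bp peak (3R 8266751 to 8268600) covered 39.7% of the gene and ran 676 bp past its higher end, across an 18 bp gap, into CG9630. In this pair of genes, as in Orc2, the peak thus spanned the junction with the next gene, with more of its bases in the licensing gene.

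The other neighbour of Mcm2 is also a replication gene. RPA1, which encodes the large subunit of the single-stranded DNA-binding protein RPA, ends 518 bp below Mcm2 and held a peak of its own, 700 bp wide, that covered 30.0% of it. The peaks of RPA1 and Mcm2 were 3100 bp apart, with no peak over the ends of these genes that face each other. The smallest gap between any neighbouring peaks in the list was 1050 bp.

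The peaks of dpa and Mcm6 lay wholly inside these genes and touched no other protein-coding gene. In dpa (2R 7496702 to 7500145, 3444 bp) a 1250 bp peak (2R 7497401 to 7498650) covered 36.3%, starting 699 bp from the lower end. Its flanks held only narrow peaks, of 150 to 450 bp, and were covered to 6.75%. In Mcm6 (X 6674387 to 6677176, 2790 bp) peaks of 250 and 600 bp, 1350 bp apart, covered 30.5% together. Both were narrower than the median peak of the list, 1100 bp. The nearest peaks outside Mcm6 were a 150 bp peak in CG3198, 1886 bp away, and a 1950 bp peak in Fum1, which encodes fumarase, 2624 bp away.

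Mcm7 lay beside a very broad domain that barely entered it. The 51250 bp peak over dally, a glypican gene of the Wingless and Dpp pathways (3L 8840401 to 8891650), also covered all of CG43169, ended 458 bp past dally and reached 55 bp into Mcm7 (3L 8891596 to 8894310, 2715 bp). Those 55 bp were 0.107% of the peak and 2.03% of Mcm7, little more than a step of the 50 bp grid. The only other peak in Mcm7 was 150 bp wide (3L 8893101 to 8893250), which brought the covered share to 7.55%. An antisense RNA gene, asRNA:CR45871, spans 81.2% of Mcm7 and contains this narrow peak too, and DNA fragments do not tell the strands apart. The lower 10 kb flank was covered to 100%, all by the dally peak, and the higher flank, towards the cation channel gene TrpA1, to 0%.

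Mcm5 (3R 10788524 to 10791150, 2627 bp) was without a peak, although a 4400 bp peak ended 373 bp below it. That peak (3R 10783751 to 10788150) covered 95.6% of Art1, an arginine methyltransferase gene, but only 1670 of its 4400 bp lay there. The rest lay further from Mcm5, with 342 bp of it in the mitochondrial ribosomal protein gene mRpL37. The peak stopped 76 bp before the end of Art1, so that it reached neither the 297 bp between Art1 and Mcm5 nor Mcm5 itself. No peak lay in the 10 kb on the higher side, and the next was 36500 bp away, in Cad86C. The absence of a peak does not show that the mark is absent, since signal below the authors' threshold is not listed.

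**Figure D3:**
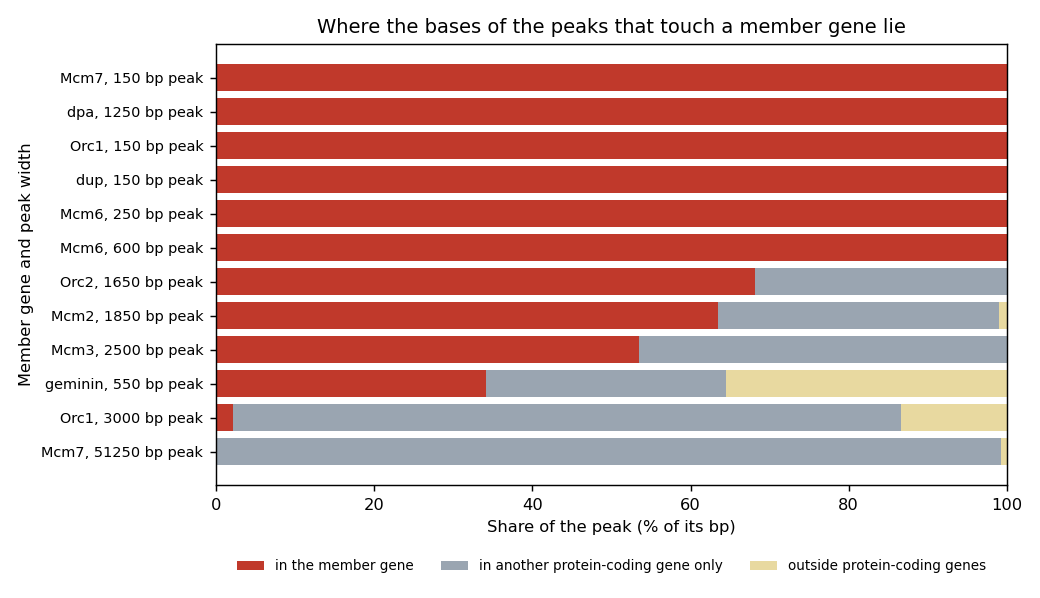
Each bar is a peak that touches a licensing gene, labelled with the gene and the peak width, and shows the percent of its base pairs in that gene (red, bases shared with another gene included), in other protein-coding genes only (grey) and outside protein-coding genes (yellow). Of the 12 peaks, 6 lie wholly in the licensing gene, and the peaks at geminin (550 bp), Orc1 (3000 bp) and Mcm7 (51250 bp) have under 50% of their bases there.

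By position, 6 of the 12 peaks lay wholly inside a licensing gene and the other 6 crossed a gene end, each into another protein-coding gene. Of the crossing peaks, those at Orc2, Mcm2 and Mcm3 had most of their bases in the licensing gene, and those at geminin, Orc1 and Mcm7 did not. The peaks at Orc1 and Mcm7 ran in from Drat and dally, while the peak at geminin was divided between geminin, Opbp and the gap between them. Of the 6 inner peaks, 3 had the narrowest width of 150 bp, in Orc1, dup and Mcm7. The median width of the 12 was 925 bp.

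Under the rule that at least 50% of a peak must lie in the gene, 8 of the 10 genes had a peak, against 27% of all protein-coding genes and 24% of those in the length range. The same 8 genes, all but geminin and Mcm5, had the midpoint of a peak in their body, against 27.9% of all protein-coding genes. Without the 150 bp peaks there were also 8, all but dup and Mcm5, against 35.8% of all protein-coding genes. With only peaks of at least 1100 bp there were 6 (Orc1, Orc2, Mcm2, Mcm3, dpa and Mcm7), against 28.4%. Under both of these width rules, Orc1 and Mcm7 counted only through the peaks that ran in from Drat and dally, by 66 and 55 bp. With the 150 bp peaks left out and at least 50% of the peak required to lie in the gene, a choice made once the values were known, the genes with a peak were Orc2, Mcm2, Mcm3, dpa and Mcm6 (5 of 10), against 24.4% of all protein-coding genes and 20.7% in the length range. Of the 10 genes, only Orc2 had a peak under each of the rules for the gene body given here, the rule of 50% of the body included.

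With 10 kb flanks included, all 10 genes had a peak, as did 72.4% of all protein-coding genes. A further 24 peaks lay in the flanks alone, and all 24 lay at least partly in another protein-coding gene. The share of all peaks in the list that touch a protein-coding gene is not given here, so this count has no background beside it. The median flank of the 10 was covered to 21.9%, against 15.3% for genes of their length range. All 10 still had a peak with 5 kb flanks, where 64.3% of protein-coding genes did, and with 2 kb flanks, where 54.1% did.

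The genes dpa and Orc1 lie 22291 bp apart on 2R. Between them were 4 peaks of 150 to 350 bp, so no broad domain joined them. Each of these genes was marked inside its own body, dpa over 1250 bp and Orc1 over 150 bp.

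The other genes of origin licensing and DNA synthesis were described with the same rule, in a list of 48 that includes the 10. A peak touched 35 of the 48, and 26 of the 38 beyond the 10 (68.4%), against the 38.3% given above for all protein-coding genes. The list was not matched in length to that set, and the share with a peak differed between the length deciles given above. Coverage was again mostly partial, with 7 of the 48 covered over at least 50% of the body, against 18.3% of all protein-coding genes. The median covered share over the 38 was 9.96%. Over all protein-coding genes it was 0%, which follows from only 38.3% of them having a peak. Peaks covered 23.1% of the body sequence of the 38, against 18.9% of that of all protein-coding genes. Of the 26 genes with a peak, 15 (57.7%) shared a peak with another protein-coding gene, as did 63.4% of the 5339 protein-coding genes with a peak.

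The counts by role that follow rest on few genes each, and the share to set beside them is the 38.3% of all protein-coding genes. By role, 3 of 6 ORC genes had a peak, which is not far from that share. The third was Orc5, with 28.7% of its body covered, and Orc3 (also called lat), Orc4 and Orc6 had none. Of the genes of loading and its inhibition, Cdc6, an ATPase that works with ORC, had no peak, so that dup and geminin were the 2 of 3 that did. The MCM genes had a peak in 5 of 6 cases, with a median covered share of 33.4%. The MCM family gene rec (Mcm8), which acts in meiotic recombination in Drosophila, had none.

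The genes listed under activation of the loaded helicase were marked unevenly, with a peak in 7 of 11. This group also held l(2)dtl, the Cdt2 gene, which is not a helicase factor and was covered to 13.7%. The largest covered shares were those of chif, which encodes the Dbf4-like partner of the Cdc7 kinase, at 65.2%, mus101, a TopBP1 homologue, at 41.2%, and Cdc45, a helicase cofactor, at 26.7%. The GINS subunit genes Sld5 and Psf1 had no peak, nor did Mcm10 and RecQ4, while the other GINS genes Psf2 and Psf3 were covered to 12.8% and 9.96%. Of the polymerase and primase genes 5 of 7 had a peak, led by PolD1, the catalytic subunit of polymerase delta, at 71.0%, PolA1, that of polymerase alpha, at 60.7%, and Prim1 at 34.3%. Prim2 and PolE2 had none.

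The clamp, clamp loader and fork genes had a peak in 13 of 14 cases, against 38.3% of all protein-coding genes. PCNA2, a second copy of the clamp gene, was the exception. Many of these peaks covered little, and the median covered share of the 14 was 18.2%. At least 50% of the body was covered in 3 of the 14, against 18.3% of all protein-coding genes. The clamp loader genes RfC4 and RfC38 were covered whole, but by peaks of 9950 and 6450 bp that also lay over Ras64B, Rop and ens and over CG4751 and Nup160. RPA3 followed at 61.0%, with a peak that also touched CG1703. The clamp gene PCNA, covered to 26.3%, shared its peak with Hsl.

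**Figure D4:**
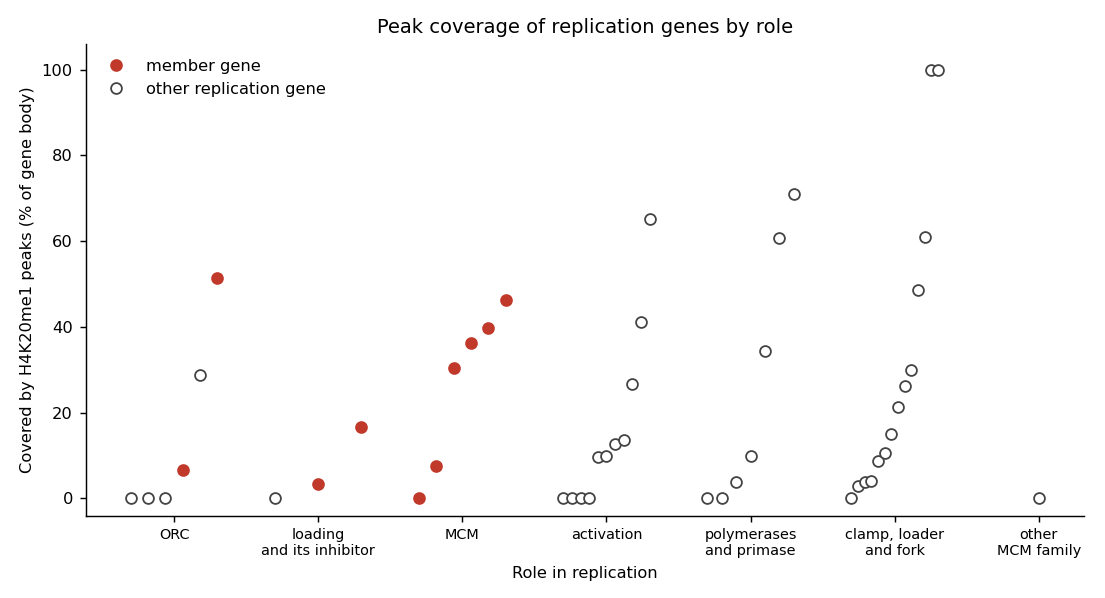
Points give the percent of the gene body under H4K20me1 peaks for 48 replication genes, grouped by role, with the 10 licensing genes filled. Points at 0 are genes with no peak, and the 2 points at 100% are RfC4 and RfC38.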

How the data were processed

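The file used was the H4K20me1 peak list that the authors deposited for Oregon-R wing discs. It places each peak on a chromosome by its first and last base, gives its width in base pairs, and has no count, score or p-value. Per the submitters' processing notes, positions refer to dm6 and the tools were deepTools, edgeR, bedtools, SAMtools and Bowtie2, with no version or role stated. Which program called the peaks, at what threshold, and whether replicates were pooled is not given in the sources used here. Width equalled end minus start plus 1 for every peak, so positions count from 1.

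Gene bodies came from the RefSeq table of Release 6, the same build. Python 3.11.15 with pandas 2.3.3 computed overlaps, and the overlap code was tested on simulated intervals against a base-by-base count. A gene had a peak at 1 bp of overlap. Length deciles were taken over all protein-coding genes. Of the 48 pathway genes, 46 matched by symbol and 2 by an older symbol. Distances count the bases between features. No test was run, because the list holds no value per library. A planned search of promoters for motifs was not run, since no sequence was used here.

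The 10 genes, the pathway list and the settings were chosen with earlier results of these data known. All 10 genes were named, with every protein-coding gene that overlaps or shares a peak with them. A further gene under the same rule is not reported here. In the pathway list, up to 3 of the most covered genes and all without a peak were named for each role. Psf2, Psf3 and PCNA, and neighbours beyond these rules, were named after their values were seen.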

Additional observations from a re-analysis of the deposited data

How the results depend on the processing

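The count of licensing genes with a peak, 9 of 10, became 8 when the peak midpoint or at least 50% of the peak had to lie in the gene, 8 without the 150 bp peaks and 6 with only peaks of at least the median width of 1100 bp. It fell to 1 (Orc2) when at least 50% of the body had to be covered, and to 5 when the 150 bp peaks were left out and at least 50% of the peak had to lie in the gene, a setting added after the data were seen. The count in the list of 48, 35 genes, was 26, 24 and 32 under the midpoint rule, the rule of at least 50% of the peak and without the 150 bp peaks. It was 7 under the rule of 50% of the body, 19 with only the wider peaks and 19 under the added setting. Of all protein-coding genes, 38.3% had a peak by the main rule. Under the other rules, in the order given for the 48, they were 27.9%, 27%, 35.8%, 18.3%, 28.4% and 24.4%. The median covered share of the 10 bodies was 23.5%, the same where bases shared with other protein-coding genes were left out, and 2.02% with only the wider peaks, which drop dup, geminin and Mcm6 to 0%. With 5 kb and 2 kb flanks all 10 genes had a peak, as with 10 kb. No paired analysis was possible because the result comes from no test, and for the same reason no replicate could be left out. Depth is unknown, and with it the weakest signal that the authors' threshold would have listed.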

Other observations

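Beyond the 10 kb flanks, Orc2 stood at the edge of a long stretch without peaks, a feature looked for after the data were seen. Below its own peak, none was listed for 202.1 kb (3R 13763851 to 13965950), a stretch that contains 23 whole protein-coding genes and ends inside Orc2. The next peak lay in kmr. Of the 6907 gaps between neighbouring peaks in the list, 84 (1.22%) were at least as long, and the median gap was 2650 bp.

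Mcm3 was likewise followed, past the peak it shares with CG3309, by 84.65 kb without a peak (X 5327901 to 5412550), a length reached by 4.89% of the gaps. The stretch contains 4 whole protein-coding genes. The stretch that contains Mcm5, above the peak that ends in Art1, was 39.5 kb long. It and the stretches of 32.95 kb above the peak of Mcm2 and of 21.95 kb above the narrow peak of Mcm7 were shorter, with 9.96%, 11.4% and 14.6% of gaps at least as long. All these shares count gaps and not the sequence in them, and a long gap holds more sequence than a short one. How often genes of other functions lie in or beside such stretches was not computed.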
